A study of Mus musculus with 32 samples.

Results

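Ngp, Camp, Ltf, S100a8, S100a9, Elane, Mpo, Lcn2, Cd177 and Retnlg, the products of neutrophil granules and cytosol, were followed in the lungs of newborn mice. These 10 genes, of 21515 gene names on the array, were read by 12 of its 55681 probes, chosen by the gene name printed for each probe. Total lung RNA of 32 pups had been hybridised in 1 colour, 1 pup per array. The pups fall into 8 groups of 4: age P5 or P14, 21% O2 (normoxia) or 85% O2 (hyperoxia, a model of bronchopulmonary dysplasia), and scrambled antimiR or antimiR-34a. AntimiRs are locked nucleic acid oligonucleotides that bind and block a microRNA, and every group received one, so that no group was without an oligonucleotide. All lungs were perfused with buffer through the heart before they were taken, and no cells were sorted. For killing, the labels give pentobarbital at P5 and isoflurane at P14, whereas the methods give pentobarbital at both ages, so that a difference in agent between the ages is uncertain. The pups were wild-type C57BL/6J per the methods, and exposure began in newborn pups. Ngp was picked because it was lower with antimiR-34a in 85% O2 at P14, so that comparison is given here as values only, without a test for any of the 10 genes.

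Neutrophils load their granules in order as they mature in the bone marrow. Primary granules, with the protease Elane and the peroxidase Mpo, are filled in promyelocytes, whereas the secondary granule proteins Ngp, Camp, Ltf and Lcn2 are made later, in myelocytes, under the transcription factor Cebpe. S100a8 and S100a9, the subunits of the metal-binding protein calprotectin, fill the cytosol of the mature cell, Retnlg is a resistin-like secreted protein of mature cells, and Cd177 is a surface and granule glycoprotein. Some of these genes are not confined to neutrophils: Lcn2 is also an acute phase gene of epithelium, and Ltf is made by glandular epithelium.

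The microRNA blocked by the antimiR is printed from RefSeq (GRCm38.p6) with its seed, bases 2 to 8, in capitals, since the treatment is directed against it. It lies at chr4:150068473-150068494 on the plus strand.
mmu-miR-34a-5p: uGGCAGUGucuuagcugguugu

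Promoters (250 bases before to 50 after the RefSeq start, GRCm38.p6) were held for 10 of the 10 genes. The binding word of the C/EBP factors, TTGCNNAA on either strand, was present in 5 of the 10 (Ngp, Ltf, S100a9, Lcn2 and Retnlg) and in 10.8% of all 32851 promoters. The PU.1 core GAGGAA was present in 6 of the 10 (Ltf, S100a8, Elane, Mpo, Lcn2 and Cd177) and in 28.3% of all promoters. The TATA box TATAAA was present in 3 of the 10 (S100a8, S100a9 and Cd177) and in 13.6% of all promoters. The windows below show the C/EBP word in capitals, read along the gene's strand, for the secondary granule genes that hold it, because Ngp, Camp, Ltf and Lcn2 belong to the same granule and gave different values below. Camp held none of the 3 words. A match is a run of letters, not a measured binding site.
Ngp, chr9:110419660-110419687, plus strand: tcctggtttaTTGCCCAAacctccttgc
Ngp, chr9:110419787-110419814, plus strand: ccggcagttcTTGGGCAAggcagtctca
Ltf, chr9:111019207-111019234, plus strand: ggcaggcctaTTGGGCAAtagggtgggg
Lcn2, chr2:32387938-32387965, minus strand: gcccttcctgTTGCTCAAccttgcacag

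Levels are on the log2 scale, with the signal of each array set against its own 75th percentile, so that 0 is a probe at that percentile, and they are compared only within a probe. Tests are limma fits with Benjamini-Hochberg adjustment over all probes tested at that age (35984 at P5, 38458 at P14, 39163 for both ages), and a probe or gene is called at an adjusted p under 0.05. The 10 genes each had a probe that passed the filter on dim probes at both ages. Per the array files (mm9), the Lcn2 probe lies at chr2:32240199-32240258 (minus strand), the Retnlg probe at chr16:48874468-48874527 (plus), the Camp probe at chr9:109749911-109749970 (minus), the Ltf probe at chr9:110942873-110942932 (plus) and the Elane probe at chr10:79350902-79350961 (plus). Camp had a second probe, and a second Mpo probe was not well above background on any of 32 arrays. Ngp was well above background on 30 of 32 arrays, Cd177 on 31 and the brighter Mpo probe on 27, and the other 7 genes on all 32. Each of the 4 slides held 1 age and 1 oxygen level, with the scrambled antimiR mice in 1 row and the antimiR-34a mice in the other. Oxygen and slide, age and slide, and antimiR and row therefore cannot be told apart. P5 scrambled 21% O2 replicate 4 stood apart: the summed level of 10 skeletal muscle genes was 7.65 there and at most 3.68 in the other mice. The Ltf results that rest on it are also given without it. A summed level of a list is the log2 of the sum of its unlogged levels, so that its brightest genes weigh most. A mean level is the average of the log2 levels.

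In 85% O2 at P14, the comparison that chose Ngp, the level of Ngp with scrambled antimiR was -2.13, -3.82, -3.14 and -2.24 in replicates 1 to 4. With antimiR-34a it was -4.35, -5.81, -4.20 and -5.82, and the -5.81 and -5.82 were not well above background. Every antimiR-34a mouse was below every scrambled mouse, and the means differed by -2.21 on the log2 scale. With normexp background correction the difference was -0.96. Camp, the cathelicidin precursor, showed the same order: 0.34, -1.10, -0.36 and 0.72 with scrambled antimiR, and -1.52, -2.20, -1.53 and -1.92 with antimiR-34a, a difference of -1.69. Its second probe differed by -1.49, also without overlap. Elane was the remaining gene whose groups did not overlap, at a difference of -0.26. Thus 3 of the 10 genes lay lower without overlap, beside 6.48% of all 38458 probes in that direction, and 2.66% of all probes were called in this comparison. The rule used this contrast, and nothing is read from these counts.

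The other genes of that comparison differed less or overlapped. The log2 difference was -0.94 for Retnlg, -0.84 for S100a9 and -0.76 for S100a8, and in all 3 of them the ranges of the groups overlapped. In S100a8 the antimiR-34a mice were at 2.13, 3.25, 1.98 and 1.21, and the scrambled mice at 2.93, 2.43, 2.99 and 3.26. Replicate 2 of the antimiR-34a group was therefore as high as the scrambled mice, although it had one of the lowest Ngp levels. Without that mouse the difference of S100a8 was -1.13, and without antimiR-34a replicate 4 it was -0.45. The groups also overlapped in Ltf (-0.24), Mpo (-0.11), Lcn2 (-0.04) and Cd177 (0.11), and single mice decided these values. Leaving out 1 array at a time gave -0.56 to -0.06 for Ltf, -0.63 to 0.20 for Mpo, -0.15 to 0.07 for Lcn2 and -0.22 to 0.31 for Cd177. Without antimiR-34a replicate 4, the mouse of its group with the highest airway genes, Ltf was at -0.56 and Cd177 at -0.22, and without antimiR-34a replicate 2 Mpo was at -0.63. Over the 10 genes the median was -0.51 and over all probes -0.04. In this bulk tissue, fewer cells of a type and less RNA per cell cannot be told apart.

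**Figure D1:**
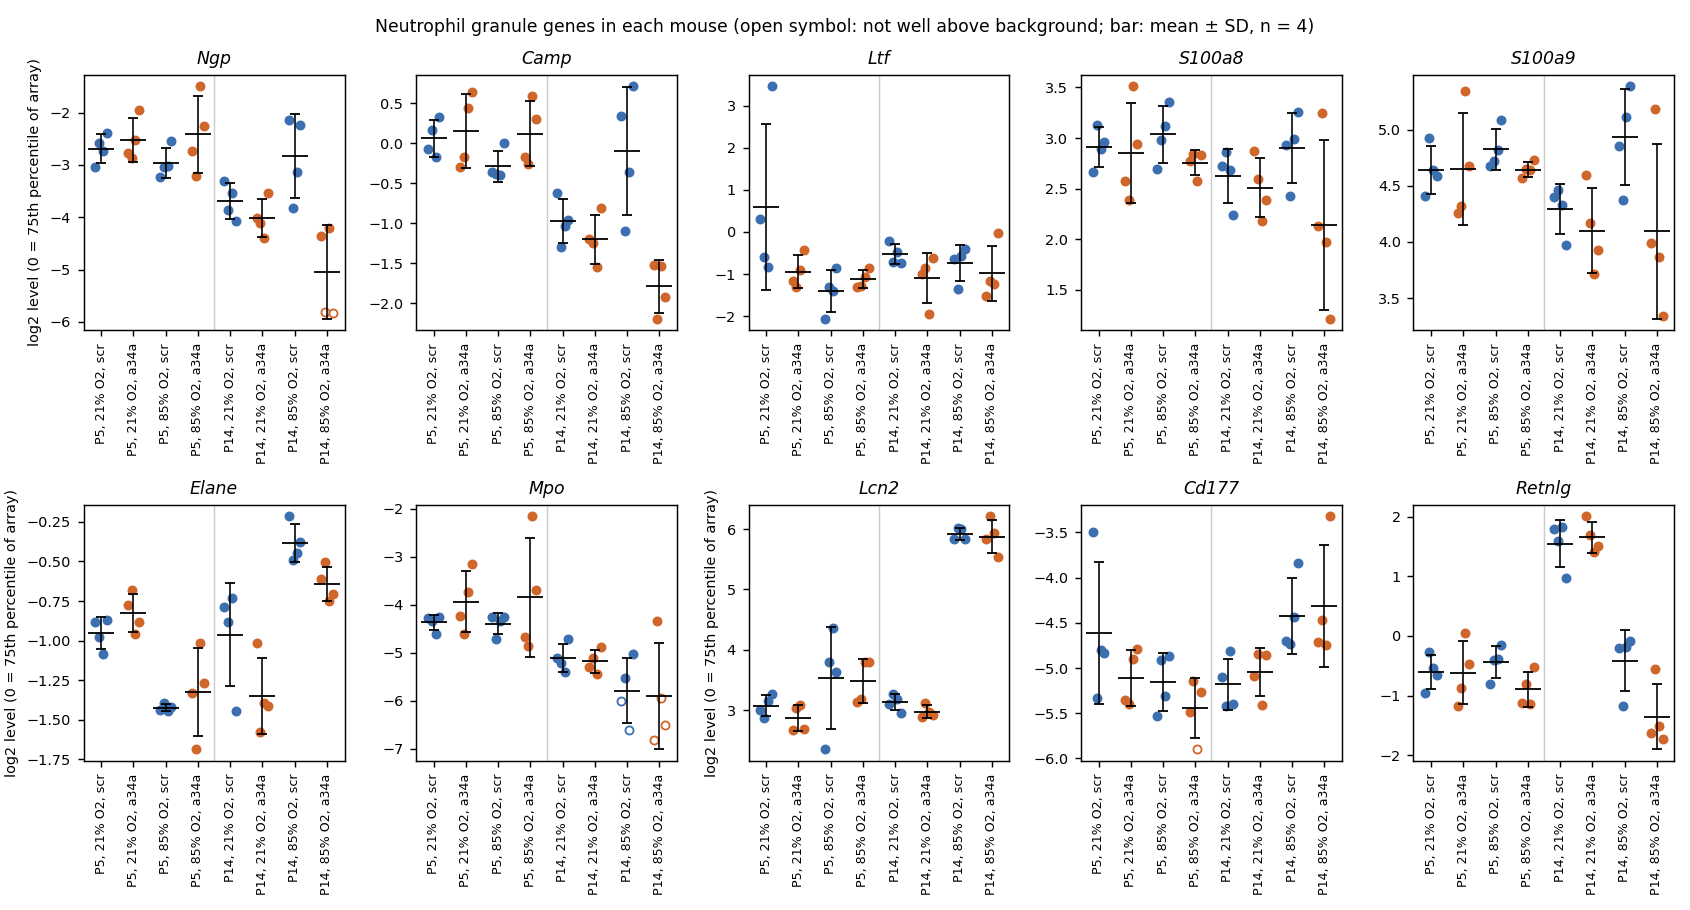
Log2 levels of the 10 genes (vertical axis, 0 is the 75th percentile of the array) in each of 32 mice, by age, oxygen and antimiR (scr, scrambled antimiR, blue; a34a, antimiR-34a, orange), with open symbols where the probe was not well above background and bars for mean ± SD of 4 mice. The means of Ngp, Camp, Retnlg, S100a8, S100a9 and Mpo are lowest with antimiR-34a in 85% O2 at P14, each with a range that overlaps that of the next group in order. Lcn2 is highest in both 85% O2 groups at P14, and Retnlg is highest in both 21% O2 groups at P14.

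Across all 8 groups, Ngp was -3.05, -2.59, -2.73 and -2.39 with scrambled antimiR in 21% O2 at P5, and -2.78, -2.87, -2.53 and -1.94 with antimiR-34a. In 85% O2 at P5 it was -3.22, -3.03, -3.03 and -2.55 with scrambled antimiR, and -2.73, -3.21, -1.50 and -2.25 with antimiR-34a. In 21% O2 at P14 it was -3.31, -3.86, -3.53 and -4.07 with scrambled antimiR, and -4.02, -4.12, -4.40 and -3.53 with antimiR-34a. The 4 P5 groups and the P14 scrambled 85% O2 group thus had mean levels between -2.42 and -2.96, each range overlapping that of the next group in order. Below them followed both P14 21% O2 groups at means of -3.69 and -4.02, and last the P14 antimiR-34a 85% O2 group at -5.05 ± 0.89 (SD, n = 4).

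The question in the other antimiR comparisons was whether blocking miR-34a changed these genes in air or early in hyperoxia. None of the 10 genes was called with antimiR-34a against scrambled antimiR in 21% O2 at P5 (limma, 1 gene, Ltf, at an unadjusted p under 0.05, 0.136% of all probes called), in 85% O2 at P5 (no gene at an unadjusted p under 0.05, 0.0639% called) or in 21% O2 at P14 (1 gene at an unadjusted p under 0.05, 0% called). Ltf differed by -1.54 in 21% O2 at P5, and by -0.58 (limma adjusted p = 0.469) without scrambled replicate 4, the mouse with the high skeletal muscle genes. In the same comparison the listed airway epithelium genes had a median of -3.77 and the skeletal muscle genes one of -1.34, with none called. The part of these markers in the Ltf value was not tested. Median differences over the 10 genes were -0.01, 0.02 and -0.17. Ngp differed by 0.16 (95% interval -0.49 to 0.81) in 21% O2 at P5, by 0.54 (-0.11 to 1.19) in 85% O2 at P5 and by -0.33 (-1.24 to 0.59) in 21% O2 at P14, and Camp by 0.09, 0.40 and -0.23. The antimiR-34a effect in 85% O2 minus that in 21% O2 at P5 also gave no call among the 10 (limma, no gene at an unadjusted p under 0.05, 0.0556% of probes called). No gene of the lists of other neutrophil genes described below was called in the 3 antimiR comparisons. In 85% O2 at P5, Mpo was -2.16 and Ngp -1.50 in antimiR-34a replicate 3, the highest value of each gene over all 32 mice. In 21% O2 at P14, Elane was at -0.39 with antimiR-34a (limma adjusted p = 0.473), and it was called when scrambled replicate 4, an array dimmer than the others of its group, was left out. The 75th percentile of that array was 9.34 on the log2 scale, against 10.12 to 10.17 in the rest of its group. AntimiR-34a replicate 1 stood apart the other way, at 10.20 against 9.56 to 9.64. Elane was -1.44 in scrambled replicate 4, against -0.88 to -0.73 in the rest. It was -1.01 in antimiR-34a replicate 1, against -1.58 to -1.39 in the rest. The part of array brightness in this comparison, calls and lack of calls alike, was not tested.

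Hyperoxia was compared with normoxia to find which of these genes followed the injury. At P14, Lcn2, the siderophore-binding lipocalin that withholds iron from bacteria, rose most among the 10. With scrambled antimiR its level was 3.1, 3.27, 3.18 and 2.95 in 21% O2 and 5.83, 6.01, 6.0 and 5.83 in 85% O2, without overlap, a 6.93-fold rise (log2 difference 2.79 ± 0.12 SE, limma adjusted p = 8.52e-10). With antimiR-34a it was 2.88, 3.12, 2.98 and 2.92 in 21% O2 and 5.84, 6.21, 5.93 and 5.53 in 85% O2, a 7.49-fold rise (log2 difference 2.90 ± 0.12 SE, limma adjusted p = 6.49e-10). Retnlg moved the other way. With scrambled antimiR it was 1.79, 1.59, 1.83 and 0.98 in 21% O2 and -0.20, -1.18, -0.19 and -0.09 in 85% O2, a 3.90-fold fall (log2 difference -1.96 ± 0.29 SE, limma adjusted p = 6.54e-05). With antimiR-34a it was 2.01, 1.70, 1.41 and 1.51 in 21% O2 and -1.62, -0.55, -1.52 and -1.73 in 85% O2, an 8.06-fold fall (log2 difference -3.01 ± 0.29 SE, limma adjusted p = 1.41e-06). In both antimiR groups, every mouse in 85% O2 lay above every mouse in 21% O2 for Lcn2 and below it for Retnlg. For neither gene was the difference between the antimiR groups tested, since it contains the comparison that chose Ngp.

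Smaller changes at P14 were seen in Elane, Cd177 and Camp. Elane, neutrophil elastase, was -0.79, -0.88, -0.73 and -1.44 in 21% O2 and -0.22, -0.49, -0.44 and -0.38 in 85% O2 with scrambled antimiR, higher in 85% O2 by 0.58 ± 0.15 (SE, limma adjusted p = 0.00418), and with antimiR-34a it was higher by 0.71 ± 0.15 (SE, limma adjusted p = 0.000912). Cd177 was higher by 0.76 ± 0.29 with scrambled antimiR (SE, limma adjusted p = 0.0376) and by 0.73 ± 0.29 with antimiR-34a (SE, limma adjusted p = 0.0398), without overlap in either. These Cd177 calls were near the threshold: with scrambled antimiR the call was lost without 85% O2 replicate 3 or 4 or without 21% O2 replicate 1, 2 or 4, and with antimiR-34a without 85% O2 replicate 2 or 4 or without 21% O2 replicate 1 or 3. Without antimiR-34a 85% O2 replicate 4 the Cd177 difference was 0.40. Over all alternatives the Cd177 call was lost in 8 of 19 with scrambled antimiR and in 10 of 19 with antimiR-34a. Among these, no filter, the methods' t-test and leaving out both arrays that stood apart in brightness ended both calls, and normexp (0.43), array weights and the compared groups alone ended the antimiR-34a call. The differences were 0.50 with normexp and 1.26 with quantile normalization for scrambled antimiR, and 1.63 with quantile normalization for antimiR-34a. Camp was higher with scrambled antimiR by 0.87 ± 0.32 (SE, limma adjusted p = 0.0282), with overlapping ranges, and lost its call without 85% O2 replicate 1 or 4 or 21% O2 replicate 2, 3 or 4 (adjusted p at most 0.097), and on its second probe (0.62, limma adjusted p = 0.112). Camp also lost its call with array weights (0.57), the mean of its probes, the compared groups alone, the methods' t-test and without both arrays that stood apart, 10 of 19 alternatives in all, at adjusted p values of up to 0.164. The Elane call with scrambled antimiR was lost with the methods' t-test.

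With scrambled antimiR at P14, 4 of the 9 genes tested thus rose and 1 fell, beside 28.4% and 32.4% of all probes and 60.8% in both directions. With antimiR-34a, 3 of 9 rose and 1 fell, beside 27.8%, 37.8% and 65.6%. The median over the 9 genes was 0.58 with scrambled antimiR and -0.01 with antimiR-34a, and over all probes -0.06 and -0.11. Ngp is left out of these counts because the same mice chose it: its differences were 0.86 and -1.03, with overlapping ranges in both, and 2 of the 4 antimiR-34a mice in 85% O2 were not well above background for it. The 85% O2 mice of these comparisons are those of the comparison that chose Ngp. Camp is counted although it moved with Ngp between mice (Pearson's r = 0.863, below), so that its call is not independent of that choice. S100a8 (0.28 and -0.37), S100a9 (0.64 and -0.01), Mpo (-0.68 and -0.72) and Ltf (-0.21 and 0.12) were not called in either antimiR group. Mpo was not well above background in 2 of 4 scrambled and 3 of 4 antimiR-34a mice in 85% O2 at P14, so that its differences there, and the -0.11 above, set values at background against each other or against measured ones.

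**Figure D2:**
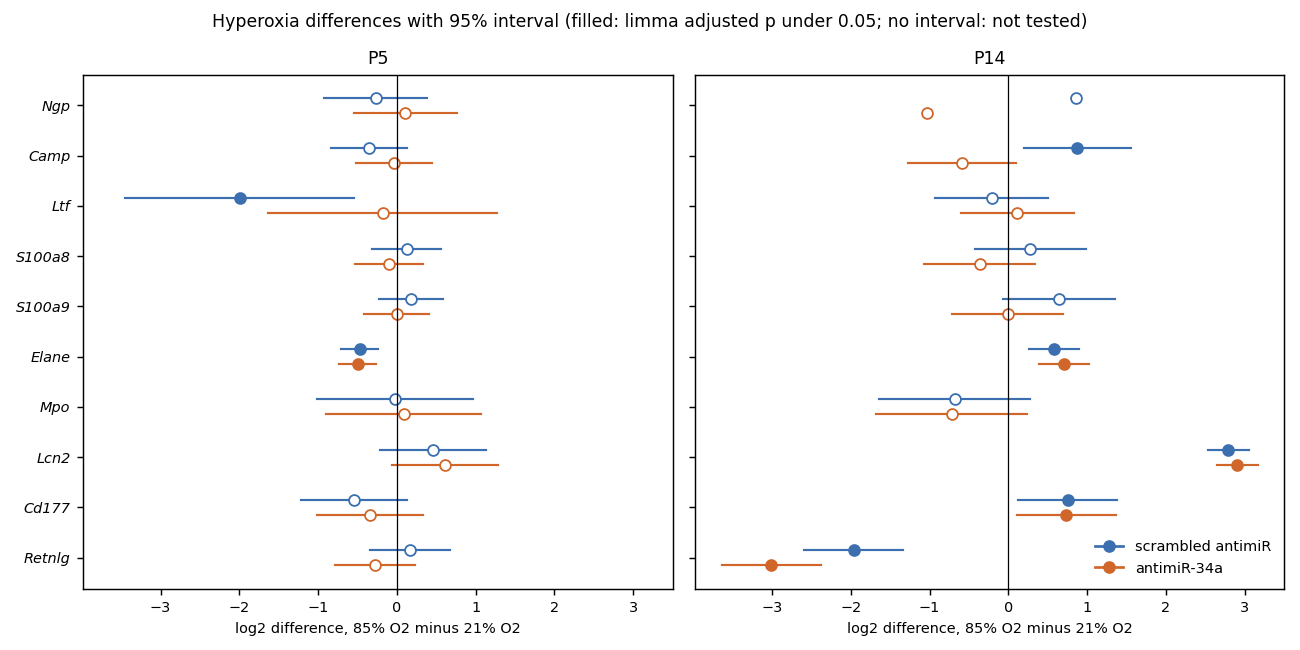
Log2 difference of 85% O2 minus 21% O2 (horizontal axis) for each of the 10 genes at P5 (left) and P14 (right), with scrambled antimiR (blue) and antimiR-34a (orange), lines for the 95% interval of the limma fit, and filled symbols for an adjusted p under 0.05. At P14 Lcn2 lies near 2.79 and 2.90 and Retnlg at -1.96 and -3.01, while at P5 neither was called in this fit (Lcn2 was under array weights with scrambled antimiR and in the compared groups alone with antimiR-34a), and Ngp has no interval at P14 because it was not tested there.

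At P5, Elane was the gene called in both antimiR groups. With scrambled antimiR its level was -0.88, -0.98, -1.08 and -0.87 in 21% O2 and -1.44, -1.39, -1.44 and -1.42 in 85% O2, a difference of -0.47 ± 0.11 (SE, limma adjusted p = 0.00356). With antimiR-34a the difference was -0.50 ± 0.11 (SE, limma adjusted p = 0.00217), again without overlap, a call that the methods' t-test did not make. Ltf, the iron-binding lactoferrin, was 0.32, -0.59, -0.83 and 3.46 in 21% O2 and -2.06, -1.30, -1.41 and -0.85 in 85% O2 with scrambled antimiR, a difference of -1.996 ± 0.68 (SE, limma adjusted p = 0.028). The value of 3.46 came from replicate 4, the library with the high skeletal muscle genes, and without it the difference was -1.04 (limma adjusted p = 0.0161). The Ltf call was lost without 85% O2 replicate 1, 2 or 3, at adjusted p values of up to 0.0662. The methods' t-test and a fit of the compared groups alone also ended it. With antimiR-34a Ltf differed by -0.18 (limma adjusted p = 0.845). In the scrambled mice at P5, 6 of 10 airway genes were lower in 85% O2 (median -2.83) and 4 of 9 skeletal muscle genes (median -2.20), and with antimiR-34a none of the 10 airway genes was called (median 0.50) and 1 of 9 skeletal muscle genes was lower. Of 13 macrophage and monocyte genes 10 were higher and none lower with scrambled antimiR (summed level 5.88 to 6.07 in 21% O2 and 6.27 to 6.63 in 85% O2), and 9 higher and 1 lower with antimiR-34a, and of 9 red blood cell genes 1 was higher and 3 lower with scrambled antimiR. The part of these markers in the P5 differences was not tested. In all, 2 of the 10 genes were called with scrambled antimiR, both lower, beside 17.5% of probes higher, 26.4% lower and 43.9% in all, and 1 with antimiR-34a, lower, beside 17.2%, 29.5% and 46.6%. Medians over the 10 genes were -0.15 and -0.07, and over all probes -0.07 and -0.09. Lcn2, at 2.35, 3.79, 4.36 and 3.63 in the 85% O2 scrambled mice, was not called at P5 (0.46 ± 0.31 SE, limma adjusted p = 0.253), but it was called there with array weights, and with antimiR-34a (0.61, limma adjusted p = 0.125) in a fit of the compared groups alone.

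The oxygen effect at P14 was then set against that at P5, in the scrambled antimiR mice. It was larger at P14 by 2.33 ± 0.35 for Lcn2 (SE, limma adjusted p = 1.31e-05), by 1.05 ± 0.19 for Elane (SE, limma adjusted p = 0.000104), by 1.298 ± 0.45 for Cd177 (SE, limma adjusted p = 0.022) and by 1.22 ± 0.40 for Camp (SE, limma adjusted p = 0.017). For Retnlg it was lower at P14, by -2.13 ± 0.39 (SE, limma adjusted p = 0.000132). Elane was thus lower in 85% O2 at P5 and higher at P14, and both changes and their difference were called. Mpo, the other primary granule gene of the set, was at -0.02 at P5 and -0.68 at P14, neither called. At P14 only 2 of 4 mice in 85% O2 were well above background for Mpo. Between mice, Elane did not follow the primary granule genes Mpo, Prtn3 or Ctsg (Pearson's r = 0.204, 0.0698 and -0.115, below). Of the 9 genes tested, 5 were called, 4 higher and 1 lower, beside 23.0% of probes higher, 17.9% lower and 40.8% in all. The P14 85% O2 scrambled mice are among those that chose Ngp. Camp moved with Ngp between mice (Pearson's r = 0.863, below), so that the Camp call is not independent of that choice. Without P14 85% O2 replicate 4, Camp (0.95) and Cd177 (1.10) lost their calls and the count was 3, and without P5 21% O2 replicate 1 Cd177 (0.93) lost its call. With array weights Camp (0.91) lost its call, and with normexp the Cd177 difference was 0.70.

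Between P5 and P14 in 21% O2 with scrambled antimiR, the genes of this set moved in different directions. Retnlg rose 4.45-fold, from -0.95, -0.27, -0.54 and -0.66 at P5 to 1.79, 1.59, 1.83 and 0.98 at P14 (log2 difference 2.15 ± 0.28 SE, limma adjusted p = 5.61e-07). Camp fell, from -0.07, 0.17, -0.17 and 0.33 to -0.62, -1.29, -1.03 and -0.96 (-1.04 ± 0.28 SE, limma adjusted p = 0.00367), as did its second probe (-1.09, limma adjusted p = 0.00277). Ngp fell by a log2 difference of -1.002 ± 0.38 (SE, limma adjusted p = 0.0319), without overlap, but the call was lost without P5 replicate 2, 3 or 4 or P14 replicate 2 or 4, and without both P14 21% O2 arrays that stood apart in brightness, at adjusted p values of up to 0.0957. With normexp the Ngp difference was -0.61. S100a8 (-0.28) and S100a9 (-0.35) were not called. Of the 10 genes 1 rose and 2 fell, beside 27.8% and 23.5% of all probes and 51.4% in all. In the same comparison 10 of 13 macrophage and monocyte genes and 10 of 11 lymphocyte genes were higher and none lower, 7 of 9 platelet genes were lower and none higher, and of 9 red blood cell genes 1 was higher and 4 lower. The summed level of the macrophage genes was 5.88 to 6.07 at P5 and 6.24 to 6.74 at P14. The part of these markers in the age differences was not tested.

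Mice of the same group differed among themselves, and this variation shows which genes moved together. As a description with no test, Pearson's r was taken over the 32 mice between deviations from the 8 group means, on shared arrays and a shared scaling. S100a8 and S100a9 had an r of 0.967, Retnlg an r of 0.865 with S100a8 and 0.882 with S100a9, and Ngp and Camp an r of 0.863. The other pairs among the 10 genes had an r of at most 0.412, so the set fell into a calprotectin and Retnlg group, an Ngp and Camp pair, and 5 genes that followed neither. S100a8 with Ngp had an r of 0.183. This grouping is of mice within a group and does not hold between groups. With age in 21% O2 and scrambled antimiR, Retnlg was at 2.15, S100a8 at -0.28 and S100a9 at -0.35. In 85% against 21% O2 at P14 with scrambled antimiR, they were at -1.96, 0.28 and 0.64.

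The genes outside the set most like each of these differed as well. For S100a8 they were Stfa2l1 (r = 0.975), Stfa2 (r = 0.968) and Stfa1 (r = 0.963), stefins that inhibit cysteine proteases, and the collagenase Mmp8 had an r of 0.843. For Ngp the list was led by 4930445N18Rik (r = 0.717), Etl4 (r = 0.705) and Dbp (r = 0.702), and it also held Nkg7, Fcnb, Cirbp, Ccl5, Gm32391, Klrc1 and Cuedc2. Fcnb, a ficolin of maturing neutrophils, had an r of 0.673 with Ngp, 0.54 with Camp and 0.0286 with S100a8, but it was well above background on only 11 of 32 arrays. For the mean of all 10 genes the 10 most alike were Stfa3 (r = 0.717), Wfdc18 (r = 0.71), Fuom, Pstpip1, Cmip, Slc25a34, Wwp2, Slc16a3, Emilin2 and Cdpf1. The lists for Ngp and for the mean were set by rule, and those for the other genes were added after the values were seen. Lcn2 was most like Saa3 (r = 0.828), an acute phase serum amyloid gene, and Elane was most like Gtpbp6 (r = 0.842) and had an r of 0.0698 with Prtn3 and of -0.115 with Ctsg, both proteases of primary granules, and of 0.204 with Mpo.

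**Figure D3:**
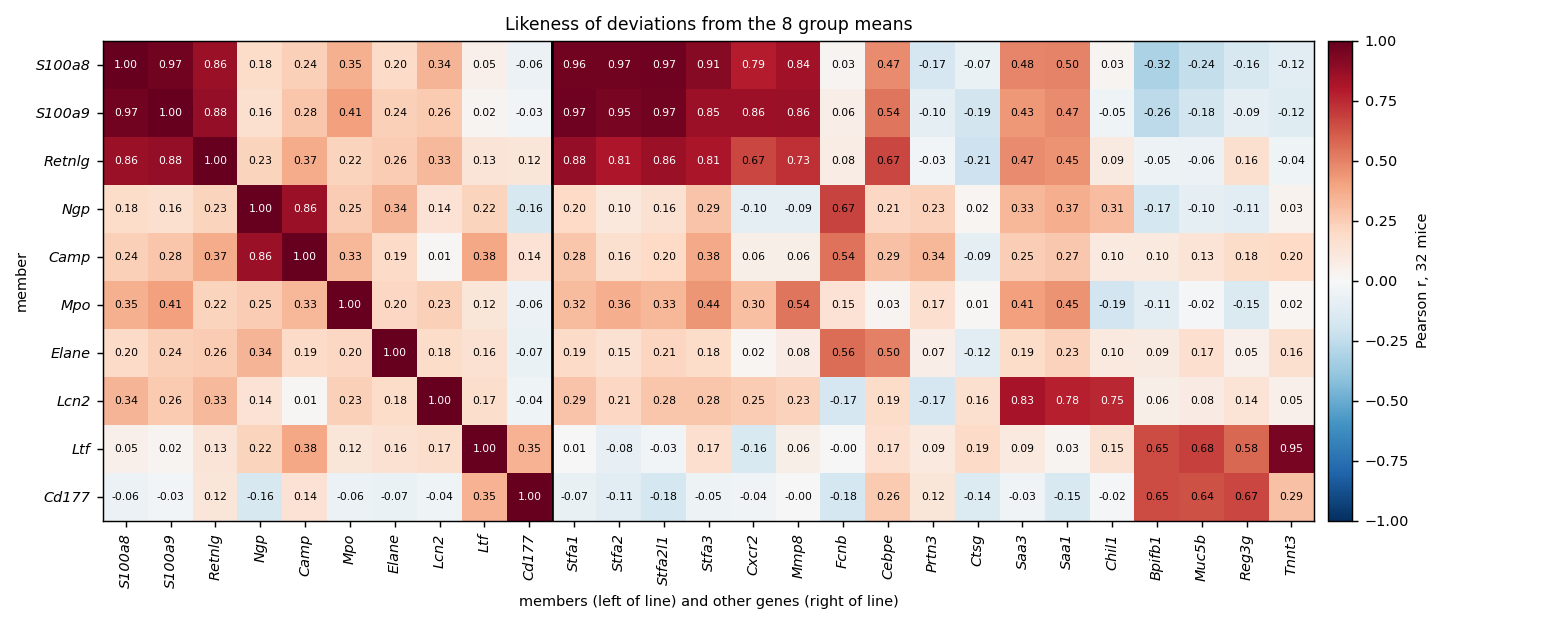
Pearson's r over 32 mice between deviations from the 8 group means, for each of the 10 genes (rows) against the 10 genes (columns left of the line) and 17 other genes (right of the line), from -1 (blue) to 1 (red). S100a8, S100a9 and Retnlg form a block with the stefins, Ngp and Camp form a pair, Fcnb (0.673 with Ngp) was well above background on 11 arrays, and Ltf and Cd177 follow Bpifb1, Muc5b and Reg3g.

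Ltf and Cd177 moved with genes of other tissues. Ltf was most like Tnnt3 (r = 0.946), a fast skeletal muscle troponin, and had an r of 0.68 with the airway mucin Muc5b. Without P5 scrambled 21% O2 replicate 4 the r of Ltf was 0.819 with Tnnt3 and 0.754 with Muc5b. With Acta1, another skeletal muscle gene, the r of Ltf was 0.79 over all mice and 0.117 without that mouse. The r of Cd177 with Tnnt3 was 0.295 over all mice and 0.797 without it. Cd177 was most like Spag6 (r = 0.723), a gene of motile cilia, and Nkx2-5 (r = 0.705), a heart muscle transcription factor, and had an r of 0.667 with Reg3g and 0.636 with Muc5b. The mean level of 10 airway epithelium genes was 2.83 and 2.69 in P5 scrambled 21% O2 replicates 1 and 4, and 0.85 and -0.31 in replicates 2 and 3. Replicate 1 had the highest Cd177 of its group at -3.49, and replicate 4 had the highest Ltf at 3.46. In the P14 antimiR-34a 85% O2 group the airway mean was 3.71 in replicate 4 and 0.20 to 0.50 in the others, and replicate 4 had the highest Cd177 of the 32 mice at -3.32 and the highest Ltf of its group at -0.03. All 10 airway genes were well above background in the P5 scrambled 21% O2 mice, with a summed level between 8.48 and 8.89, and 9 or 10 of them in the P14 antimiR-34a 85% O2 mice, between 9.11 and 9.56. The 8 mice of P14 in 21% O2 also had high airway means, 2.30 to 3.42, with low Cd177, -5.42 to -4.81. The part of the airway genes in the Ltf and Cd177 values was not tested.

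**Figure D4:**
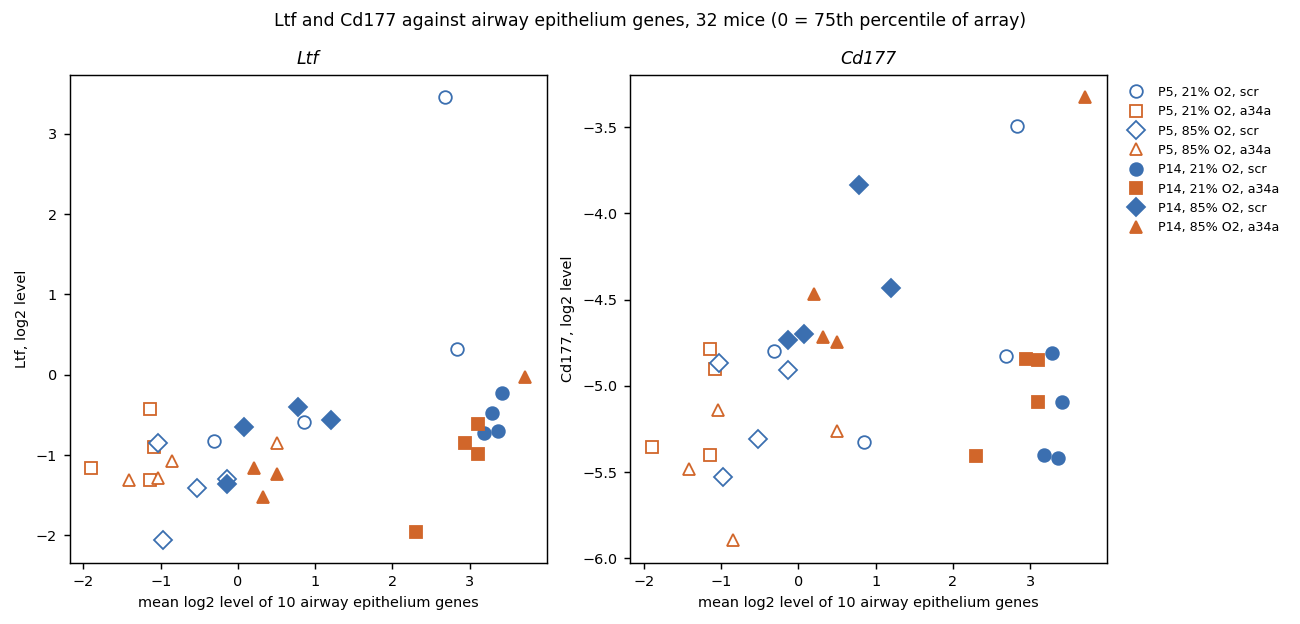
Log2 level of Ltf (left) and Cd177 (right) against the mean log2 level of 10 airway epithelium genes (horizontal axis) in 32 mice, coloured by antimiR, with open symbols for P5 and filled symbols for P14. The mice with the highest Ltf (3.46) and the highest Cd177 (-3.32 and -3.49) lie at airway means of 2.69, 3.71 and 2.83, but the 8 mice of P14 in 21% O2, at airway means of 2.30 to 3.42, have Cd177 levels of -5.42 to -4.81 and Ltf levels of -1.95 to -0.22.

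Other genes of neutrophils and their recruitment were read from lists, in scrambled antimiR mice. Of 8 attractants and growth factors tested at P14, 6 rose in 85% O2 and 2 fell (median of the list 1.10), beside 28.4% of all probes higher, 32.4% lower and 60.8% called in all (median -0.06). The chemokine Cxcl5 rose from -4.08 ± 0.53 (SD, n = 4) to 1.67 ± 0.39, a log2 difference of 5.75 ± 0.27 (SE, limma adjusted p = 2.17e-09), and Cxcl1 rose by 2.80 ± 0.31 (SE, limma adjusted p = 4.57e-06). Cxcl12, the marrow retention chemokine, fell by 1.04 (limma adjusted p = 1.85e-06). At P5, 6 of 8 rose and 1 fell, beside 17.5%, 26.4% and 43.9% of all probes, with Cxcl5 at 4.06 ± 0.42 (SE, limma adjusted p = 5.1e-06).

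Of 16 receptor and surface genes 5 rose and 5 fell at P14 (median -0.25), a share near the 28.4%, 32.4% and 60.8% of all probes. Among them the decoy receptor Il1r2 rose by 3.01 ± 0.31 (SE, limma adjusted p = 2.58e-06) and the lectin Clec4d by 1.78 ± 0.19 (SE, limma adjusted p = 2.78e-06), while the formyl peptide receptor Fpr1 was at -2.57 ± 0.43 (SE, limma adjusted p = 0.000181). Of 10 transcription factors 5 rose and 2 fell (median 0.24), beside the same 28.4%, 32.4% and 60.8%. Cebpe, which drives secondary granule genes, went from -0.80 ± 0.59 (SD, n = 4) in 21% O2 to -3.45 ± 0.40 in 85% O2, a difference of -2.65 ± 0.28 (SE, limma adjusted p = 3.41e-06), while Cebpd rose by 1.11 ± 0.18 (SE, limma adjusted p = 0.000138) and Cebpb by 0.81 ± 0.12 (SE, limma adjusted p = 6.5e-05). At P5 Cebpe was not called. With antimiR-34a at P14, 3 of the 16 receptor and surface genes rose in 85% O2 and 7 fell, beside 27.8%, 37.8% and 65.6% of all probes.

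Of 13 other secondary and tertiary granule genes tested at P14, 6 rose and 4 fell (median 0.31), beside 28.4%, 32.4% and 60.8% of all probes. The antiproteinase Slpi rose by 2.02 ± 0.21 (SE, limma adjusted p = 2.62e-06), whereas the chitinase-like Chil3, also a gene of alveolar macrophages and eosinophils, was at -2.42 ± 0.43 (SE, limma adjusted p = 0.000287) and the integrin Itgam, shared with macrophages and eosinophils, at -2.04 ± 0.37 (SE, limma adjusted p = 0.000307). Of 8 other primary granule genes 2 rose and 1 fell (median 0.17), a smaller share than the 60.8% of all probes: the protease Ctsg, also made by mast cells, rose by 1.82 ± 0.31 (SE, limma adjusted p = 0.000192) and the lysozyme Lyz2, also a macrophage gene, was at -1.18 ± 0.25 (SE, limma adjusted p = 0.000946). Of 5 stefins 2 rose, Stfa2 by 1.002 (limma adjusted p = 0.0333) and Stfa1 by 0.79 (limma adjusted p = 0.0398), and none fell (median 0.61, all probes called 60.8%). With antimiR-34a no stefin was called in the same comparison (median -0.01), and the difference between the antimiR groups was not tested. Between P5 and P14 in 21% O2 all 5 stefins fell (median -0.90), beside 27.8% of all probes higher, 23.5% lower and 51.4% in all (median 0.04), with Stfa3 at -1.62 ± 0.31 (SE, limma adjusted p = 9.42e-05), while Cebpe rose by 1.35 (limma adjusted p = 5.3e-05).

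Markers of other cells moved at the same time. With scrambled antimiR at P14, 10 of 13 macrophage and monocyte genes were higher in 85% O2 and 1 lower, beside 28.4% and 32.4% of all probes, and their summed level was 7.19 to 7.64 in 85% O2 and 6.24 to 6.74 in 21% O2. Of 11 lymphocyte genes 9 fell. Of 8 eosinophil, basophil and mast cell genes 3 rose and 3 fell, with the eosinophil receptor Ccr3 at -3.55 ± 0.32 (SE, limma adjusted p = 7.69e-07) and the mast cell protease Mcpt4 at 3.19 ± 0.24 (SE, limma adjusted p = 1.53e-07). Of 10 airway genes 1 rose and 7 fell, of 8 red blood cell genes 5 fell (median -1.16), of 7 thymus genes 6 fell and of 8 skeletal muscle genes 5 fell. With antimiR-34a in the same comparison, of 13 macrophage and monocyte genes 10 were higher and 2 lower, beside 27.8% and 37.8% of all probes. Of 11 lymphocyte genes 1 rose and 8 fell, of 10 airway genes 1 rose and 6 fell, and all 7 thymus genes fell. Of 8 red blood cell genes 3 fell, and of 8 skeletal muscle genes 3 fell. The part of these shifts in the values of the granule genes was not tested.

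**Figure D5:**
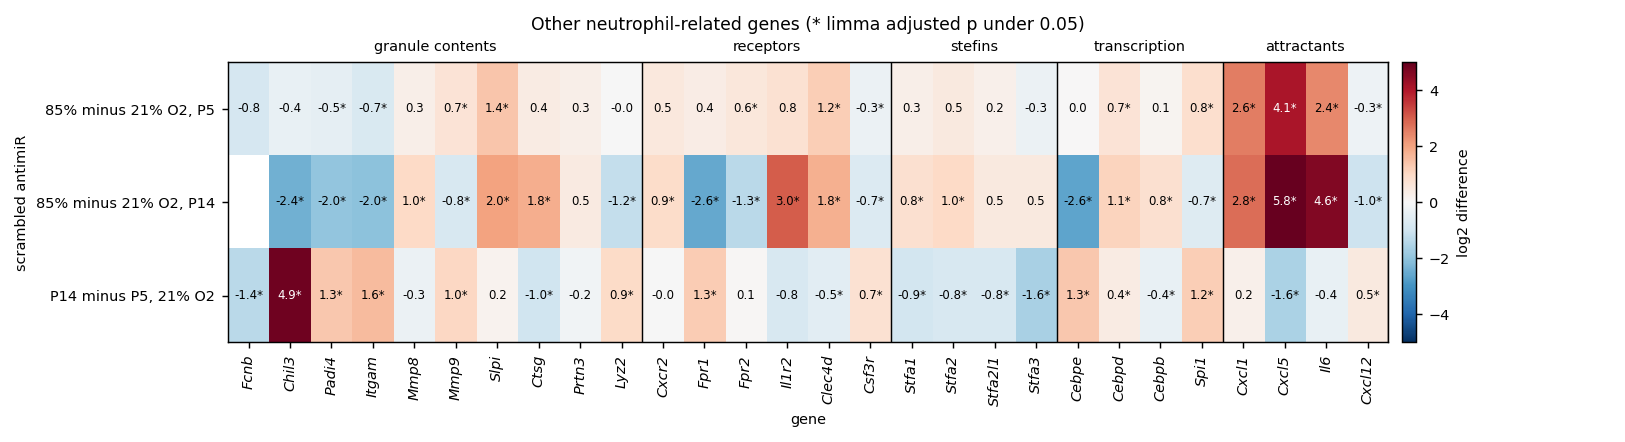
Log2 differences in scrambled antimiR mice for other neutrophil-related genes (columns, grouped by role) in 85% minus 21% O2 at P5 and P14 and in P14 minus P5 in 21% O2 (rows), from -5 (blue) to 5 (red), with a star for a limma adjusted p under 0.05 and a blank where the gene was not tested. Cxcl5 is at 4.06 and 5.75 in hyperoxia, and Cebpe is at -2.65 at P14 in hyperoxia and at 1.35 with age.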

How the data were processed

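The authors deposited 1 Agilent Feature Extraction file per array (version 10.7.3.1 per the labels' processing notes), with intensity values already background-subtracted, and a table of log2 values that the authors normalized, here used as an alternative. Both antimiR groups of an age and oxygen level shared a slide, and groups and replicate numbers were taken from the labels. From the deposited intensity values, log2 values were taken and centred on each array at the 75th percentile of its 59305 mouse spots. Control and outlier spots (0.211%) were left out, spots of a probe were averaged, and no spot was saturated. A probe was tested if some group of the fit had it well above background in all its 4 mice, using limma 3.58.1 (lmFit and eBayes, R 4.3.3), with all groups of the age, or of both ages, in 1 fit. The brightest tested probe stood for a gene. The code was tested on simulated data. Per the file headers probe positions are in mm9, and promoters and miR-34a are in GRCm38.p6 from RefSeq, so no coordinates were joined.

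The 10 genes, the lists and the tests were chosen with earlier results of these data known. Named genes were the 10, at most 3 called genes of a list and comparison with the largest change, and the 10 genes most like Ngp and most like the mean. Cxcl12, Mmp8, Acta1, Prtn3 and its values with Elane, Muc5b, Reg3g and the genes most like the other members were picked after their values were seen. Replicates are numbered samples, and neither labels nor methods tie them to litters, so p-values measure the spread between these samples, and the number of arrays, 4 per group, limits the precision.

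The alternatives were normexp background correction with offset 50, quantile normalization, the authors' table, no filter and a filter on every array, the replicate number as a block, array weights, the mean of a gene's probes, the compared groups alone, the methods' t-test with Benjamini-Hochberg adjustment, leaving out each array in turn, and, chosen after seeing the data, leaving out both P14 21% O2 arrays that stood apart in brightness.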

Additional observations from a re-analysis of the deposited data

Results flagged for a closer look

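Of 80 sets of 4 mice (10 genes in 8 groups), 2 held a mouse whose gap to the nearest of the others exceeded Dixon's critical value, where chance gives about 1 in 20. Camp was 0.0017 in P5 scrambled 85% O2 replicate 4, above -0.36 in the nearest mouse. Retnlg was -1.18 in P14 scrambled 85% O2 replicate 2, below -0.20 in the nearest mouse. The oxygen effect differed between P14 and P5 in scrambled antimiR mice, by a test of the difference itself, for Lcn2 (2.33), Cd177 (1.298), Camp (1.22), Elane (1.05) and Retnlg (-2.13). The Camp value is not independent of the choice of Ngp.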

How the results depend on the processing

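The calls of Lcn2 and Retnlg (oxygen at P14, oxygen by age and, for Retnlg, age) kept their direction and side of the threshold under every alternative run, and of 405 values of single genes under alternatives 360 kept both, 45 lost the call and 0 reversed. The count of genes called moved by 1.5 times or more, or from or to 0, as follows. For P14 against P5 in 21% O2 it went from 3 to 5 with quantile normalization and with the authors' table, and to 2 with probes above background on every array and without both P14 21% O2 arrays that stood apart in brightness. For antimiR-34a in 21% O2 at P14 it went from 0 to 1 with array weights and without both arrays. For oxygen with scrambled antimiR at P5 it went from 2 to 1 with the compared groups alone and with the methods' t-test and to 3 with array weights, which added Lcn2, and at P14 from 5 to 2 with the methods' t-test and to 3 without both arrays. For oxygen with antimiR-34a at P5 it went from 1 to 2 with the compared groups alone and to 0 with the methods' t-test. Smaller moves came with several other alternatives, so that over all of them, left-out arrays included, the count was 2 to 5 for oxygen at P14 with scrambled antimiR (5 in the fit reported), 3 to 5 with antimiR-34a (4), 3 to 6 for oxygen by age (5) and 2 to 5 for age (3). The described Ngp difference of -2.21 was -0.96 with normexp, the causes of these changes not being tested.

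Leaving out 1 array gave ranges of 0 to 0 for antimiR-34a at P5 in either oxygen level and for the antimiR by oxygen term, 0 to 1 for antimiR-34a in 21% O2 at P14, 1 to 2 and 3 to 5 for oxygen with scrambled antimiR at P5 and P14, 1 to 1 and 3 to 5 with antimiR-34a, 3 to 6 for oxygen by age, 2 to 4 for age, and -2.54 to -1.96 for Ngp. Same-numbered samples did not deviate together in every pair of any comparison (r from -0.355 to 0.5), and the fit reported does not pair them. The largest r, 0.418 and 0.5, belonged to replicates 1 and 4 of antimiR-34a against scrambled in 21% O2 at P14. These pairs hold both arrays that stood apart in brightness, and what they share was not tested. With the replicate number as a block, 5 genes were called for oxygen with scrambled antimiR at P14, and 6 in place of 5 for oxygen by age. Signal over background limits Ngp, which was not well above background in 2 of 4 antimiR-34a mice in 85% O2 at P14.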
